A study of Mus musculus with 36 samples.

Results

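Mouse embryonic stem cells (ESC) without the histone methyltransferases MLL3 and MLL4 were compared with day 4 embryoid bodies (D4EB) made from them, to describe which transcripts still changed during differentiation. The genotype is MLL3-/-;MLL4-/-, called DKO here, and the comparison rests on 4 RNA libraries, 2 of ESC and 2 of D4EB, of the 12 RNA libraries and 36 samples of the series. The series also holds MLL3-/-;MLL4flox/flox cells, called f/f here, which lack MLL3 as the DKO cells do but keep the conditional MLL4 allele. Their 2 ESC and 2 D4EB libraries are set beside the DKO values. They also entered the filter on low values and the model behind the p-values, which estimates 1 spread from all 8 libraries. Per the labels, ESC were grown on irradiated fibroblast feeders in medium with LIF, and embryoid bodies were kept for 4 days in suspension in the same medium without LIF. The labels give no clone for these lines. The names of the deposited tables carry the same number after DKO for 3 of the 4 DKO libraries and none for D4EB of batch 2, and whether it marks a clone is not stated. The labels also do not say whether replicates came from separate cultures and mention removal of feeders for the chromatin samples only, so p-values measure the spread between these libraries, which may be technical. Each stage had 1 library in each of 2 batches, and a gene was kept when it differed at least 2-fold in the same direction in both. By that rule 183 of 12462 genes tested were kept, 33 higher and 150 lower in D4EB.

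MLL3 and MLL4 (genes Kmt2c and Kmt2d) are the catalytic subunits of COMPASS-like complexes that place mono-methylation on lysine 4 of histone H3, mainly at enhancers. ESC held in LIF express naive pluripotency genes through STAT3. After LIF is withdrawn and cells aggregate, wild-type cells are known to lose the naive genes, pass through a primed, epiblast-like state and then turn on genes of the primitive streak and the germ layers. Immediate early genes such as Fos and Egr1 are a separate group, transcribed within minutes of a growth factor, serum or stress signal through serum response factor, CREB and ERK signalling.

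Values are RPKM (reads per kilobase of transcript, scaled to library depth) in batch 1 and FPKM (the same per fragment) in batch 2. The 2 batches were deposited as different kinds of table, so levels are compared only within a batch. Depth behind the values was 19747946 and 21531530 reads in the DKO ESC libraries and 23147514 and 13463549 in the DKO D4EB libraries, in batches 1 and 2. The targeted genes do not check the labels, since the labels do not give the deleted exons. Kmt2d stood at 8.89 RPKM in DKO ESC and 14.3 in DKO D4EB in batch 1, and at 10.7 and 10.1 FPKM in batch 2, against 13.5 to 18.7 in the 4 f/f libraries. Kmt2c, deleted in both genotypes, stood at 1.8 to 3.44 in all 8 libraries. The core pluripotency factor Pou5f1 was at 338 RPKM and 515 FPKM in the DKO ESC libraries.

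The batches differed in the DKO cells more than in the f/f cells. Across the 12462 genes, the DKO stage differences of the 2 batches correlated at 0.382, against 0.725 for f/f, and their signs were opposite for 40.1% of genes in DKO and 25.8% in f/f. These are descriptions across genes, which share libraries and are not independent replicates. In batch 1, 265 genes were at least 2-fold higher and 344 at least 2-fold lower in DKO D4EB. In batch 2 these counts were 337 and 541. For this reason each DKO gene below is given with both batches.

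The 33 genes kept as higher make 0.265% of all genes tested, and the 150 kept as lower make 1.2%. A limma model of all 8 libraries with batch as a block, at a Benjamini-Hochberg adjusted p under 0.05 over all 12462 genes, called 25 genes higher (0.201%) and 78 lower (0.626%) in DKO D4EB. All 103 called genes had the same sign in both batches, and 71 of them, 9 higher and 62 lower, were also at least 2-fold in both. The other 24 genes kept as higher and 88 kept as lower did not pass the test. At the edge of the rule, Pou5f1-rs4 was kept with log2 differences of -1.18 and -1.03, and Zfp423 was left out with -0.99 and -1.17. At an unadjusted p under 0.05 there were 2399 genes. These calls rest on few libraries. Without DKO ESC replicate 1 or without DKO D4EB replicate 2 no gene was called, and without any one of DKO ESC replicate 2 or the 4 f/f libraries 0 to 1 genes were called higher and 3 to 15 lower. Without DKO D4EB replicate 1 the counts were 36 and 75, of which 38 were among the 103. Fitted on the 4 DKO libraries alone, 0 genes were called higher and 3 lower, and without the batch block 0 and 1. In every one of these fits all 103 genes kept their direction. This was fixed beforehand in the fits without an f/f library, without the batch block or on the DKO libraries alone. The DKO estimate is the same in those fits and only its spread differs. Genes named below beyond the largest called changes and the called or most abundant members of each list were chosen after their values were seen.

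**Figure D1:**
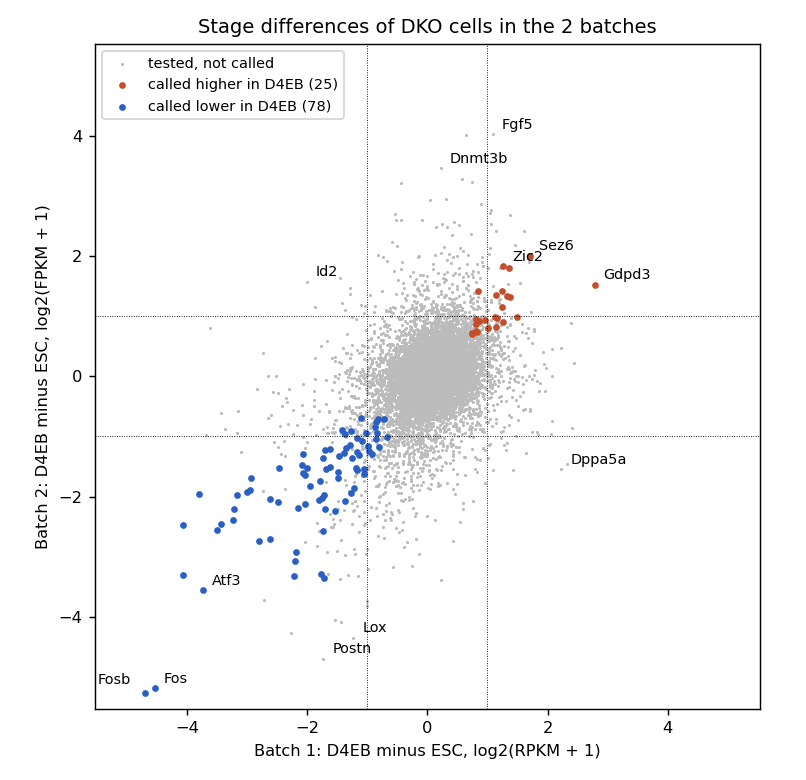
Each point is 1 of the 12462 genes, with the DKO D4EB minus DKO ESC difference of log2(value + 1) in batch 1 on the x axis and in batch 2 on the y axis. Dotted lines mark 2-fold. The 25 genes called higher (red) and the 78 called lower (blue) lie in the quadrants of like sign, while Dppa5a and Id2 are examples of genes with opposite differences.

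Immediate early genes held more called falls than any of the other lists. Of 20 listed genes, all 20 tested, 12 were called lower, against 0.626% of all genes, and none higher. At least 2-fold lower in both batches were 13 of the 20, against 1.2% of all genes. The median log2 difference of the 20 was -2.33 (-3.08 in batch 1, -1.61 in batch 2), against 0.04 for all genes tested. Fos, which encodes a subunit of the AP-1 transcription factor, stood at 148 RPKM in DKO ESC and 5.39 in DKO D4EB in batch 1, and at 283 and 6.78 FPKM in batch 2. Both D4EB libraries were far below both ESC libraries (log2 difference -4.86 ± 0.40, adjusted p = 0.0173, n = 2 per stage). Each value after ± is the standard error of the limma model, whose spread is pooled over all 8 libraries of both genotypes. Fosb, a paralog of Fos, went from 60.4 to 1.35 and from 93.7 to 1.46 (-4.99 ± 0.38, adjusted p = 0.0173). Atf3, a stress-induced bZIP factor, had the lowest adjusted p of the named genes. It went from 40.5 to 2.12 and from 30.7 to 1.69 (-3.64 ± 0.18; adjusted p = 0.00694). Egr1 and Egr2 are zinc finger factors induced by ERK signalling. Egr1 went from 237 to 13.2 and from 131 to 22.6 (-3.27 ± 0.42; adjusted p = 0.0363), and Egr2 from 26.2 to 0.627 and from 15.6 to 0.676 (-3.69 ± 0.27; adjusted p = 0.0173).

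Genes of this group that limit or spread the signal fell as well. Dusp1, a phosphatase that inactivates MAP kinases, went from 180 to 15.8 and from 84.7 to 14.7 (-2.94 ± 0.28; adjusted p = 0.0272). Zfp36, which encodes a protein that destabilises AU-rich mRNAs, went from 43.4 to 7.05 and from 24.3 to 7.83 (-1.99 ± 0.25; adjusted p = 0.0363). Ccn1 and Ccn2, secreted matricellular proteins also counted among the fibroblast markers below, fell by 2.72 and 3.03 on the log2 scale (adjusted p = 0.043 and 0.0173). Ier2, Junb and Nr4a1 make up the 12 called genes. Among the members not called, Jun was at 34.7 and 7.67 RPKM in batch 1 and 25.8 and 10.8 FPKM in batch 2 (adjusted p = 0.104). Klf6 was at 62.0 and 13.9, then 16.5 and 15.0, a difference present in 1 batch. Ier3 had opposite signs in the batches (0.63 and -0.95). Summed over the 20 genes, the level was 1683 and 1205 in the DKO ESC libraries and 224 and 242 in the DKO D4EB libraries. The f/f libraries lay between these, at 1024 and 838 in ESC and 443.5 and 539.4 in D4EB. Of the 20, 7 were called lower in f/f cells, against 3.86% of all genes, with a median of -0.64. The difference between the genotypes in stage change had an unadjusted p under 0.05 for 14 of the 20, against 13.7% of all genes, but no member passed after adjustment over all genes. The lowest was Atf3 (-3.04 ± 0.25; adjusted p = 0.0657), which in f/f cells was at 7.75 and 8.35 in ESC and 4.58 and 5.34 in D4EB. The fall of the list rests on the same libraries as the calls overall: without DKO ESC replicate 1 or DKO D4EB replicate 2, 0 of the 20 were called, with medians of -1.86 and -2.84.

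Promoters are shown for 4 called genes of the immediate early and LIF lists that carry a motif of a factor known to drive such genes, from 250 bases before to 50 after the start in RefSeq (GRCm38.p6, a different build from the mm9 named for the reads, and used for sequence only). Of the 20 genes, 15 have a promoter in that table. A CArG box, the site of serum response factor, was found on either strand in 2 of 15 (Egr2 and Zfp36) and in 1.63% of all 32851 promoters. The full cyclic AMP response element TGACGTCA, which is its own reverse complement, was found in 2 of 15 (Btg2 and Dusp1) and in 1.79% of all. For the LIF targets described further on, the STAT site TTCNNNGAA, also its own reverse complement, was found in 2 of 21 list members (Cish and Socs3) and in 8.3% of all. The carriers Btg2 and Cish were not called and are not shown. A match is a description of the letters and not evidence of binding, and motif matches outside this window were not sought. Capitals mark the match. The Egr2 window is chr10:67537316-67537615 on the plus strand (4 of its 5 listed starts carry the box), and the others are on the minus strand, Zfp36 at chr7:28379179-28379478, Dusp1 at chr17:26508423-26508722 and Socs3 at chr11:117969317-117969616.
Egr2: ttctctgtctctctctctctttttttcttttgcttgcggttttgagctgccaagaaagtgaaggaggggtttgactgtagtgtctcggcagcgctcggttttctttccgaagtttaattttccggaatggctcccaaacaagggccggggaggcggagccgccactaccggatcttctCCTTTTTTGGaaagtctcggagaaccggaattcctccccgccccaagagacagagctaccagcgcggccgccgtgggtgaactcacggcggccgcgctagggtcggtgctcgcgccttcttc
Zfp36: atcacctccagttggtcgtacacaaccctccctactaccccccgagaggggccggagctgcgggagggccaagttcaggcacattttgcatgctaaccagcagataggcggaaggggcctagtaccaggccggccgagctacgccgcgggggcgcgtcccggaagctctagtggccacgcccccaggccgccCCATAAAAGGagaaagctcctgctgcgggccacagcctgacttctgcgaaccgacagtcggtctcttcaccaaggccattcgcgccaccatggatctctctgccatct
Dusp1: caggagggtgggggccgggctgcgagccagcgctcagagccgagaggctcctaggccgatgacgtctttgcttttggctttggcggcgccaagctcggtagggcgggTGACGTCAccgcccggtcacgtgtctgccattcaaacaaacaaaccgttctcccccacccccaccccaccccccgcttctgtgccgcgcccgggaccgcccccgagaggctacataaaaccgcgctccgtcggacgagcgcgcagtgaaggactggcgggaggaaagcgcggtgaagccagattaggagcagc
Socs3: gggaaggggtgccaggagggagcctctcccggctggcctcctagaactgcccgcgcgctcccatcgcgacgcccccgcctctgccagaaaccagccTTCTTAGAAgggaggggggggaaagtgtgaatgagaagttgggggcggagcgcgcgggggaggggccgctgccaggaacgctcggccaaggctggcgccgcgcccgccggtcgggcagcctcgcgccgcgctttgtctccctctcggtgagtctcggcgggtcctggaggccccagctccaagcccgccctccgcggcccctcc
The matches begin 72, 58, 143 and 154 bases before the start of Egr2, Zfp36, Dusp1 and Socs3.

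Genes outside that list fell as well. Ptgs2, the inducible cyclooxygenase, went from 11.7 to 0.813 RPKM and from 13.6 to 1.18 FPKM (-2.77 ± 0.23; adjusted p = 0.0173). Arc, an activity-regulated gene known from neurons, went from 44.1 to 6.35 and from 17.3 to 1.797 (-2.66 ± 0.21; adjusted p = 0.0173). Epha2, an ephrin receptor, was high in DKO ESC and fell from 300 to 65.1 and from 216 to 27.7 (-2.55 ± 0.30; adjusted p = 0.034). F3, tissue factor, fell by 2.17 (adjusted p = 0.0363). Lyz2, a lysozyme of myeloid cells, fell from 40.7 to 3.43 and from 9.75 to 1.05 (-2.81 ± 0.33; adjusted p = 0.0357). The calcium-binding proteins S100a4 and S100a6 fell by 2.77 and 2.64 (adjusted p = 0.0285 and 0.043).

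Markers of fibroblasts and feeders moved with these falls. Of 31 listed, 30 were tested, 29 of them with a difference below 0. Thy1, Ccn1, Ccn2 and S100a4 were called lower, 18 were at least 2-fold lower in both batches, and the median was -1.75 (-1.04 in batch 1, -2.29 in batch 2). These counts are 13.3% and 60% of the markers tested, against 0.626% and 1.2% of all genes. Col1a1, the main fibrillar collagen chain, was at 7.78 and 3.35 RPKM in batch 1 and at 68.0 and 7.89 FPKM in batch 2 (adjusted p = 0.126). Postn, periostin, was at 5.19 and 0.861, then 51.8 and 1.04 (adjusted p = 0.121). Vim was at 90.6 and 42.9, then 242 and 80.8. Mmp2, in contrast, was slightly higher in D4EB in both batches (0.44 and 0.36, not called). None of these markers was at 0 in the DKO ESC libraries. Summed over the list, the level was 884 and 1840 in DKO ESC and 446 and 415 in DKO D4EB, and 676 and 2010 in f/f ESC and 599 and 941 in f/f D4EB. The fibroblast sum was higher in DKO ESC than in f/f ESC in batch 1 and lower in batch 2, while the immediate early sum was higher in DKO ESC in both. ESC were grown on feeders and bodies were not. The part of feeder RNA in the falls described here was not tested, and in bulk RNA fewer cells of a type and less RNA per cell cannot be told apart.

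A few targets of LIF signalling fell in the bodies. Of 23 genes listed for the LIF and STAT3 pathway, 21 were tested, with a median of -0.43. Called lower were 4 of the 21, against 0.626% of all genes, and 6 were at least 2-fold lower in both batches, against 1.2%. Differences lay below 0 for 16 and above 0 for 5, and 7 had opposite signs in the batches (40.1% of all genes did). Socs3, the feedback inhibitor induced by STAT3, went from 83.4 to 23.6 RPKM and from 87.8 to 8.04 FPKM (-2.54 ± 0.32; adjusted p = 0.0363). Bcl3, a nuclear protein of the I-kappa-B family, fell from 36.3 to 10.3 and from 51.0 to 4.05 (adjusted p = 0.0468), and Pim3, a kinase, from 97.5 to 36.4 and from 96.2 to 39.2 (adjusted p = 0.034). Junb, shared with the immediate early list, is the fourth. The receptor subunits Lifr and Il6st did not move the same way in the batches (0.43 and -1.28; 0.57 and -0.40). Stat3 itself was at 37.2 and 24.1, then 37.4 and 18.3 (adjusted p = 0.081). The changes of Socs3, Bcl3 and Pim3 were close to those of f/f cells: the difference between genotypes was 0.02 ± 0.46 for Socs3, -0.33 ± 0.51 for Bcl3 and -0.37 ± 0.22 for Pim3, with adjusted p of 0.988, 0.829 and 0.533, which does not show that they were equal.

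The naive pluripotency genes fell unevenly. Of 25 listed, 24 were tested, 2 were called lower (Klf5 and Socs3) and 5 were at least 2-fold lower in both batches. These counts are 8.33% and 20.8% of the naive genes tested, against 0.626% and 1.2% of all genes. Opposite signs were seen for 7, a smaller share than the 40.1% of all genes. The median was -0.49 in batch 1 and -1.57 in batch 2, against -1.95 in f/f cells. There 14 were called lower, against 3.86% of all genes. Klf5, a Krüppel-like factor of the naive network, went from 162 to 48.0 and from 131 to 21.1 (-2.16 ± 0.31; adjusted p = 0.0489). Klf4 was at 134 and 56.7, then 228 and 30.4 (adjusted p = 0.136), while in f/f cells it went from 88.6 to 11.8 and from 88.8 to 2.60 (adjusted p = 0.0181). Klf2 and Tfcp2l1 are the other members kept as lower, neither of them called (adjusted p = 0.131 and 0.127). Esrrb, an orphan nuclear receptor of the same network, was at 243 and 163, then 187 and 54.9 (adjusted p = 0.305). Zfp42, a naive marker, was at 202 and 153, then 352 and 82.3 (adjusted p = 0.309). DKO bodies of both batches therefore held Esrrb and Zfp42 transcripts at over 50 RPKM or FPKM. Pecam1 had opposite signs (1.32 and -1.1).

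Among core pluripotency genes 1 of 15 was called: Tdgf1, the Nodal co-receptor Cripto, fell from 236 to 96.8 and from 659 to 172 (-1.61 ± 0.23; adjusted p = 0.0489). Pou5f1 was at 338 and 181, then 515 and 342 (-0.74 ± 0.14; adjusted p = 0.0766). Nanog was at 220 and 188, then 326 and 190 (adjusted p = 0.156). Sox2 had opposite signs (0.32 and -0.62), as did Dppa4, Dppa5a and Lin28a. Over the list 14 of 15 differences lay below 0, with a median of -0.41. The share called lower was 6.67%, against 0.626% of all genes. In f/f cells the median was -0.48 with 3 called lower, against 3.86% of all genes.

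Rising genes were fewer than falling ones. Zic2 and Zic5, zinc finger factors of the primed epiblast and early neural plate, rose in both batches. Zic2 went from 19.115 to 47.1 RPKM and from 12.4 to 46.7 FPKM (1.55 ± 0.15; adjusted p = 0.0285), and Zic5 from 2.93 to 9.17 and from 5.38 to 15.0 (1.35 ± 0.15; adjusted p = 0.0324). Tcf7l1, the repressor of Wnt targets in ESC, rose from 13.2 to 30.4 and from 16.5 to 43.7 (1.25 ± 0.17; adjusted p = 0.0418). In f/f cells it was already at 51.0 and 45.4 in ESC and was at 45.8 and 50.7 in D4EB (difference between genotypes 1.24 ± 0.24; adjusted p = 0.128). Sez6, a neuronal membrane protein, rose from 0.953 to 5.41 and from 1.01 to 7.08 (1.86 ± 0.21; adjusted p = 0.0335). Prrt2, a presynaptic protein, rose from 1.67 to 5.67 and from 2.44 to 7.73 (adjusted p = 0.034). Scg5, a secretory granule protein, rose from 0.784 to 3.20 and from 0.643 to 3.39 (adjusted p = 0.0363), and Nrep from 4.19 to 11.2 and from 3.43 to 8.89 (adjusted p = 0.0435). Gdpd3, a lysophospholipase, rose from 1.66 to 17.3 and from 1.35 to 5.77 (2.156 ± 0.31; adjusted p = 0.0475), and stood at 0.087 to 0.753 in the 4 f/f libraries.

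**Figure D2:**
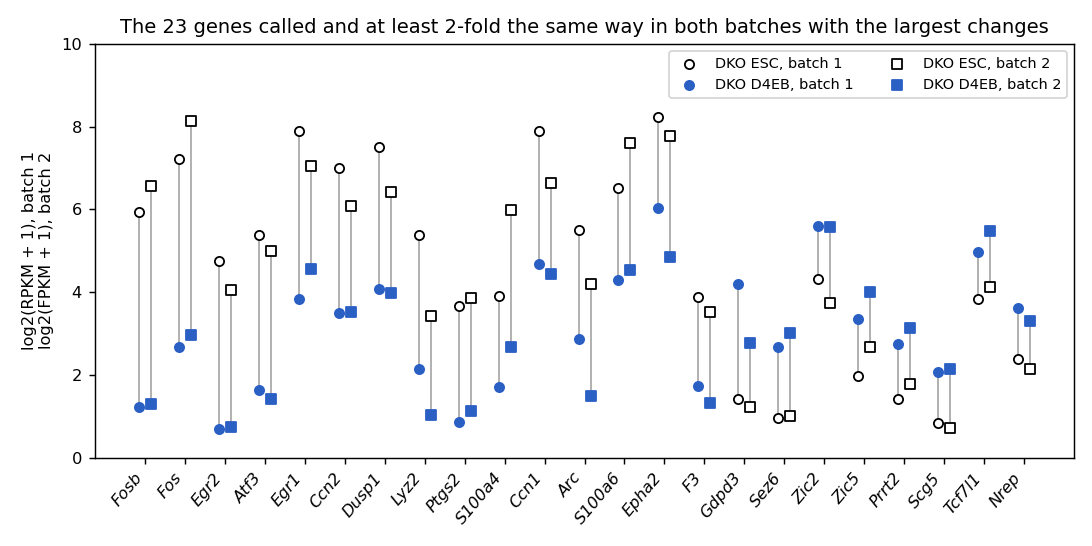
Levels of the 23 named called genes in the 4 DKO libraries, as log2(RPKM + 1) in batch 1 (circles) and log2(FPKM + 1) in batch 2 (squares). Open symbols are ESC and filled symbols D4EB, each 1 library, and the grey line joins the stages of a batch. For the 15 genes on the left both D4EB libraries lie below their ESC libraries, and for the 8 on the right above.

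The primed epiblast list rose in batch 2 and not in batch 1. All 18 members were tested. Zic2 and Zic5 were called higher, Fgf5 was also at least 2-fold higher in both batches, and the median was -0.10 in batch 1 and 1.38 in batch 2. Of all genes, 0.201% were called higher and 0.265% were at least 2-fold higher in both batches. Fgf5, a secreted ligand that marks the primed epiblast, was at 2.53 and 6.51 RPKM in batch 1 and at 0.686 and 26.7 FPKM in batch 2 (adjusted p = 0.188). Dnmt3b, a de novo DNA methyltransferase, was at 20.8 and 24.5, then 12.4 and 146 (adjusted p = 0.235), and Otx2, a homeobox factor, at 21.2 and 26.96, then 8.97 and 54.8 (adjusted p = 0.183). In batch 1 the log2 differences of Dnmt3b and Otx2 were 0.22 and 0.33. Sox3 was lower in both DKO batches, at 8.26 and 1.97, then 5.49 and 3.35, while in f/f cells it rose from 2.13 to 14.3 and from 1.32 to 15.7 (difference between genotypes -3.68 ± 0.39; adjusted p = 0.0709). Of 30 neuroectoderm genes, 14 were tested. Sox4 and Zic2 were called higher and Zic2 and Msi1 were at least 2-fold higher in both batches. Sox4 went from 26.2 to 48.1 and from 21.9 to 59.9 (1.13 ± 0.17; adjusted p = 0.0489). Sox1, an early neural marker, was at 2.38 and 3.52, then 1.37 and 8.43 (adjusted p = 0.162). Nes, nestin, had opposite signs (-1.87 and 0.30).

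No primitive streak gene was called in either direction in DKO bodies. Given the shares of all genes called (0.201% higher and 0.626% lower), a list of this size would seldom hold a call. Of 22 listed, 16 passed the filter on low values, and 9 of these averaged under 1 RPKM or FPKM over the DKO libraries, so they passed through the f/f libraries and no count or median over the list is compared between genotypes. Nodal, Cdx1 and Lefty2 were at least 2-fold lower in both DKO batches without passing the test. They are 18.75% of the genes tested in this list, against 1.2% of all genes. Lefty2 was at 19.5 and 2.95, then 128 and 34.3 (adjusted p = 0.145), and Nodal and Cdx1 are given below. The T-box factor Tbxt (brachyury) stood at 1.39 and 1.08 RPKM in batch 1 and 0.341 and 1.05 FPKM in batch 2 in DKO ESC and D4EB. In f/f cells it rose from 7.32 to 69.5 and from 0.317 to 45.1. Mixl1, a homeobox factor of the streak, was at 0.575 and 0.510, then 0.264 and 0.195, against 17.0 and 11.1 in f/f D4EB. The T-box factor Eomes was at 5.66 and 4.87, then 4.34 and 5.20, against 29.7 and 24.4 in f/f D4EB. The difference between genotypes was -2.92 ± 0.39 for Eomes (adjusted p = 0.0864). Tbxt and Mixl1 are among the genes that passed the filter through the f/f libraries, so no test between genotypes is given for them. Mesp1, under the filter, had 5 and 0 reads in DKO ESC and 4 and 1 in DKO D4EB.

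Few genes in the signalling lists of this stage were called, and few of all genes were (0.201% higher and 0.626% lower). Called lower were 4.35% of the tested Nodal genes and 2.78% of the tested Wnt genes, 1 gene in each list. At least 2-fold lower in both batches were 17.4% of the Nodal and 8.33% of the Wnt genes, against 1.2% of all genes. Nodal, the TGF-beta family ligand of the epiblast and streak, was lower in both DKO bodies, at 58.8 and 24.6, then 32.8 and 9.01 (-1.49 ± 0.25; adjusted p = 0.0611), and in f/f cells was at 31.3 and 33.4, then 18.6 and 28.4. Its co-receptor Tdgf1 fell, as given above. Its targets and feedback inhibitors Lefty1 and Lefty2 were at least 2-fold lower in both batches without passing (adjusted p = 0.142 and 0.145). Foxh1, the nuclear partner of SMAD2 in this pathway, was at 6.16 and 5.69, then 6.39 and 3.91, while f/f cells rose from 30.02 to 81.2 and from 25.4 to 79.9 (difference between genotypes -1.85 ± 0.21; adjusted p = 0.0709). Over the 23 Nodal pathway genes, 1 was called lower and none higher. In f/f cells 8 were called higher and 2 lower, against 8.14% and 3.86% of all genes. More of all genes were called in f/f cells, so these counts are not compared between genotypes. In the Wnt list 36 of 42 genes were tested, with Fzd5 called lower, Tcf7l1 higher and a median of 0.10. The receptor Fzd5 went from 38.0 to 14.1 and from 32.4 to 6.93 (-1.72 ± 0.22; adjusted p = 0.0363), and in f/f cells fell by 1.64. The Wnt targets Axin2, Sp5 and Cdx1 were not called, with Axin2 and Sp5 called higher in f/f cells. Axin2 was at 3.10 and 2.83, then 1.67 and 1.87, and Cdx1 was at 9.75 and 0.987, then 4.17 and 1.1 (adjusted p = 0.0521). Of 21 BMP pathway genes tested none was called, and its targets Id1 and Id2 moved in opposite directions in the batches.

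Other lineages gave few calls. No gene was called among 10 tested definitive endoderm genes, 14 mesoderm genes, 12 trophoblast genes, 5 blood and endothelium genes and 7 Hox genes. At the shares of all genes called (0.201% higher and 0.626% lower), lists of this size would seldom hold a call. Genes at least 2-fold lower in both batches were Acta2 and Tagln, listed under mesoderm and also fibroblast markers, Gata2 and Tead4 under trophoblast, and Gata2 under blood and endothelium. These are 2 of 14, 2 of 12 and 1 of 5, against 1.2% of all genes. Foxa2, an endoderm factor, was at 1.02 and 0.873, then 0.294 and 0.282. Of 15 extraembryonic endoderm genes Sox7 was called lower, from 2.56 to 0.265 and from 4.55 to 0.728 (-1.59 ± 0.23; adjusted p = 0.0475). Gata2, counted under trophoblast and blood, was at 5.86 and 0.546, then 8.39 and 1.03 (adjusted p = 0.0508).

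**Figure D3:**
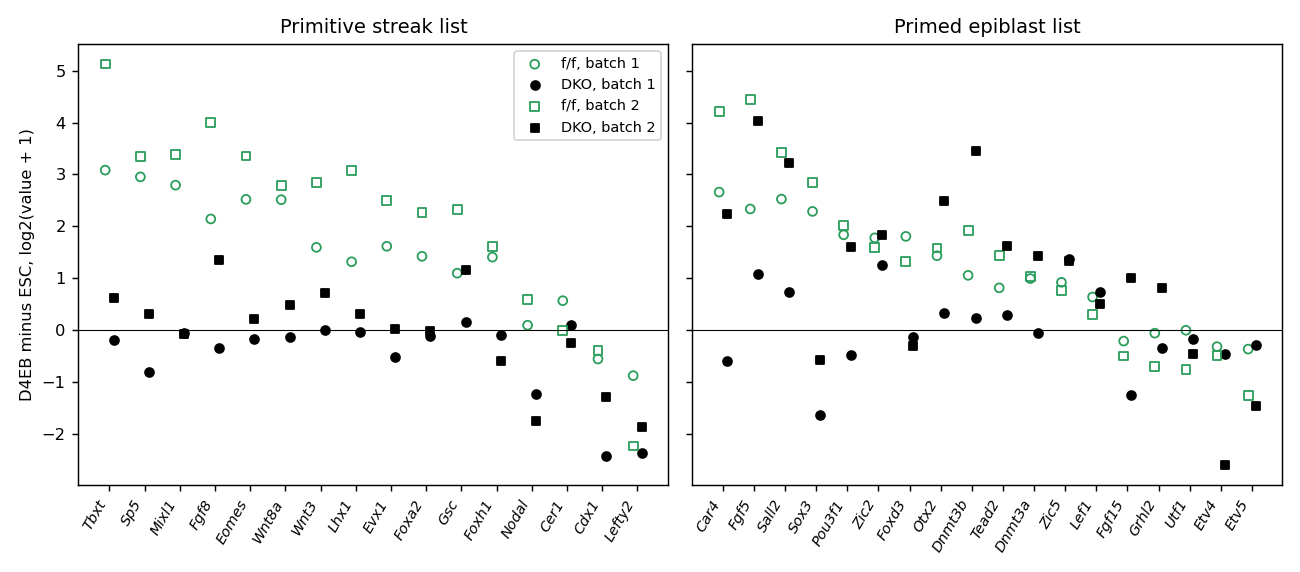
D4EB minus ESC differences of log2(value + 1) for the tested members of the primitive streak list (left) and the primed epiblast list (right), with f/f cells in green and DKO cells in black, batch 1 as circles and batch 2 as squares, 1 library per stage behind each point. On the left the DKO points of Mixl1 and Eomes lie near 0, far below their f/f points. Mixl1 passed the filter through the f/f libraries. On the right Dnmt3b, Otx2 and Sall2 are examples where DKO batches 1 and 2 lie apart.

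Of 32 tested genes in the FGF and ERK feedback list, Dusp5 was called lower beside Egr1 and Fos, which are pathway targets counted above. Called lower were 9.4% of this list and 6.67% of the epithelial list below, against 0.626% of all genes. Opposite signs in the batches were seen for 11 of the 32 (40.1% of all genes had them). Dusp5, a nuclear ERK phosphatase, went from 35.0 to 3.52 and from 12.1 to 2.44 (-2.46 ± 0.30; adjusted p = 0.0363). Dusp6, its cytoplasmic relative, was at 76.0 and 31.0, then 36.5 and 28.9 (adjusted p = 0.149), and Spry4 at 124 and 57.3, then 41.1 and 22.9 (adjusted p = 0.0975). Among 30 epithelial genes Grhl3 and Jup were called lower and 18 had opposite signs in the batches, a larger share than the 40.1% of all genes. Jup, plakoglobin, went from 31.1 to 9.44 and from 24.1 to 9.85 (-1.42 ± 0.14; adjusted p = 0.0291). The transcription factor Grhl3 went from 17.8 to 3.44 and from 13.2 to 4.09 (-1.78 ± 0.23; adjusted p = 0.0383). The keratin Krt18 was at 26.9 and 28.9, then 12.5 and 48.2 (adjusted p = 0.405), and in f/f cells rose from 38.3 to 171 and from 13.5 to 302.

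Among amino acid stress genes regulated by ATF4, 24 of 27 tested differed below 0, with a median of -0.86 in DKO and -0.79 in f/f cells. The amino acid transporter Slc38a2 was the 1 called, from 156 to 72.1 and from 88.4 to 54.2 (-0.90 ± 0.13; adjusted p = 0.0468). Atf4 was at 376 and 187, then 248 and 100.1 (adjusted p = 0.078). Single members of further lists were called lower, as were 0.626% of all genes. The D-type cyclin Ccnd3 fell from 76.4 to 32.8 and from 50.1 to 16.7 (adjusted p = 0.0272), the Polycomb subunit Eed from 79.6 to 43.3 and from 74.2 to 35.6 (adjusted p = 0.0317), the glycolytic enzyme Hk2 from 67.8 to 37.0 and from 62.6 to 36.4 (adjusted p = 0.0363), and Ifitm3 from 71.0 to 27 and from 72.2 to 31.2 (adjusted p = 0.0285). These 4 were also called lower in f/f cells. No member of the lists for KMT2 complexes (19 tested), ribosomal proteins (25), respiratory chain (26), cholesterol synthesis (24), DNA methylation enzymes (8) or housekeeping genes (14) was called or kept in either direction. None of 26 imprinted genes, 26 p53 and arrest genes, 34 collagen and basement membrane genes or 15 mesenchymal transition genes was called. At least 2-fold lower in both batches were the imprinted genes Peg3, Cdkn1c and Dcn, the p53 and arrest genes Cdkn1c, Gadd45b, Plk2 and Sesn2, the matrix genes Col1a1, Col1a2, Col3a1 and Sparc, and the mesenchymal genes Sparc, Twist2 and Vim. These are 3 of 26, 4 of 26, 4 of 34 and 3 of 15, against 1.2% of all genes.

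**Figure D4:**
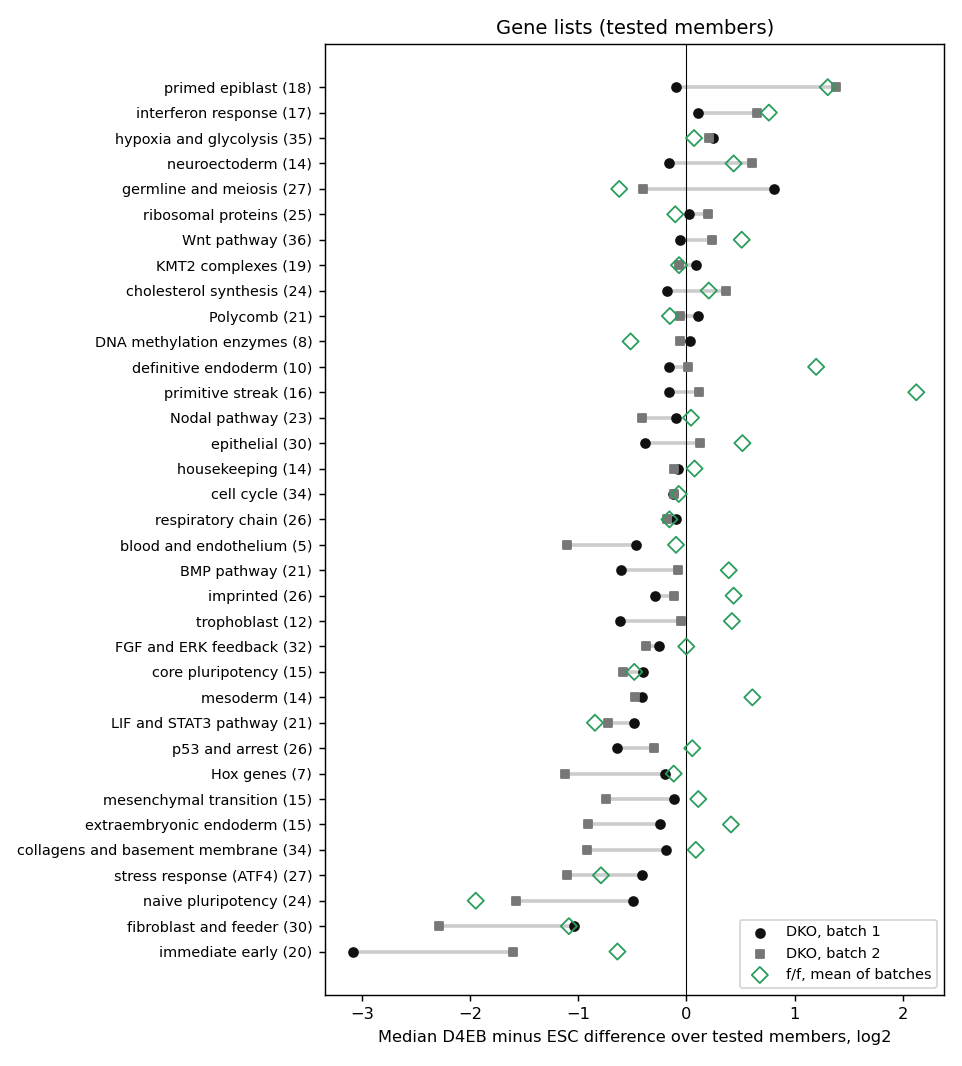
Median D4EB minus ESC difference (log2) over the tested members of each gene list with 5 or more, for DKO batch 1 (black circles), DKO batch 2 (grey squares) and the mean of batches in f/f cells (green diamonds). The number tested is in brackets. The immediate early and the fibroblast and feeder lists have the lowest DKO medians, -2.33 and -1.75 over both batches. Lists of lineage genes include members that passed the filter through the f/f libraries, so their DKO and f/f medians are not compared.

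Some genes moved in opposite directions in the batches. In DKO cells 22 genes differed at least 2-fold in opposite directions, 12 higher in D4EB in batch 1 and lower in batch 2 and 10 the reverse, against 6 such genes in f/f cells. Dppa5a was at 137 and 649 RPKM in batch 1 and at 559 and 191 FPKM in batch 2. It has near-identical copies, so its reads are uncertain. Stag3, a meiotic cohesin subunit, was at 15.8 and 33.8, then 27.4 and 12. Dazl, an RNA-binding protein of germ cells, was at 4.46 and 12.2, then 3.49 and 1.03. Of 27 tested germline and meiosis genes 21 had opposite signs (40.1% of all genes did), with a median of 0.81 in batch 1 and -0.40 in batch 2, and none was called. In the reverse direction Id2, an inhibitor of bHLH factors, was at 81.1 and 19.5, then 12.9 and 40.3, and Lin28a at 41.3 and 14.8, then 20.7 and 49.5.

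The kept genes were set beside the f/f cells to show where they differed. Of the 33 kept as higher, 26 had f/f differences above 0 in both batches and 11 were at least 2-fold higher there too, with medians of 1.51 in DKO and 0.88 in f/f. Of the 150 kept as lower, 115 were below 0 in both f/f batches and 43 at least 2-fold lower, with medians of -1.84 and -1.02. Of all 12462 genes, 359 were at least 2-fold higher and 174 at least 2-fold lower in both f/f batches. Opposite signs in the f/f batches were seen for 25.8% of all genes. How many of all genes were above or below 0 in both batches was not counted. No kept gene was at least 2-fold the opposite way in both f/f batches. In f/f cells the same model called 1014 genes higher (8.14%) and 481 lower (3.86%) in D4EB. With median-of-ratios scaling these counts were 811 and 724, and with quantile scaling 676 and 560. Without any one of the 4 f/f libraries 0 to 3 genes were called higher and 0 to 2 lower, so most f/f calls given here were lost without any one of them. Of the 103 DKO calls, 58 (56.3%) were also f/f calls, which is 3.88% of the 1495 f/f calls. Of these, 14 were higher and 41 lower in both genotypes. The 1014 genes called higher in f/f cells had a median of 0.96 there and 0.30 in DKO (0.21 in batch 1, 0.38 in batch 2). Of them, 685 were above 0 in both DKO batches and 109 below 0 in both. The 481 called lower had medians of -0.97 and -0.32, with 317 below 0 in both DKO batches and 42 above 0 in both. Of all genes, 40.1% had opposite signs in the DKO batches, a share that neither count includes. The f/f calls are meant in what follows. The 1014 and 481 genes were chosen on the f/f values, so their medians are descriptions. The difference between genotypes in stage change passed the threshold for no gene in limma (1704 genes at an unadjusted p under 0.05) and none in edgeR, and for 152 higher and 268 lower in DESeq2.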

How the data were processed

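RNA was measured in 8 libraries used here, 2 for each genotype and stage. Per the labels' protocols, mRNA was purified with oligo(dT) beads and sequenced from TruSeq libraries. The authors deposited batch 1 as read counts and RPKM per RefSeq transcript and batch 2 as FPKM per gene. The submitters' processing notes name mm9 and CASAVA 1.8.2. Which aligner and counter were run is not given in the sources used here.

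Batch 1 transcripts (28432 of 29082 matched) were joined to genes by their most-read transcript, giving 22452 genes in both batches. The 12462 genes averaging 1 or more in the 8 libraries were tested on log2(value + 1) with limma 3.58.1 (R 4.3.3, empirical Bayes with trend, 4 groups plus batch, 3 residual and 3.27 prior degrees of freedom), with Benjamini-Hochberg adjustment over all genes at 0.05. Fold changes on this scale understate those of low genes. The replicate number marks the batch, per the sample titles and the kind of file, and deviations from group means correlated between groups of a batch at 0.864 to 0.954. Batch is therefore a block in every result except where stated. For edgeR 4.0.16 and DESeq2 1.42.0, reads behind the batch 2 FPKM were recovered from value steps, with 91.9% to 92.3% of low values whole within 0.02 reads. On simulated data for the DKO comparison (12462 genes), 71% of 100 genes changed 2-fold and 97% of 100 changed 4-fold were called, with 20 unchanged genes called. The simulated reads had a fixed dispersion and a stage change that was equal in both batches. In the data the DKO stage differences of the batches correlated at only 0.382, so these rates do not give the power here.

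Named genes are the called genes at least 2-fold in both batches with the largest smaller batch difference (up to 15 per direction), Kmt2c and Kmt2d, and the called and most abundant members of 36 gene lists (789 of 801 genes matched, 642 tested). The comparison, members and lists were chosen with earlier results of these data known. The alternatives were other pseudocounts, filters, scalings, blocks and tools, and leaving out each library. The 24 chromatin and input samples and the 4 RNA libraries of other cells were not analysed here.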

Additional observations from a re-analysis of the deposited data

Results flagged for a closer look

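For 3 genes the stage change was called in opposite directions in the 2 genotypes. Their difference between genotypes did not pass after adjustment over all genes in limma, and they were picked out because every library pair moved one way in DKO and the opposite way in f/f cells.

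Myadm, a membrane protein first known from myeloid cells, fell in DKO cells from 99.9 to 43.9 RPKM and from 66.7 to 27.2 FPKM, and rose in f/f cells from 37.3 to 77.2 and from 31.6 to 62.6. The difference between genotypes was -2.21 on the log2 scale (adjusted p = 0.0657). Zfp36l2, a relative of Zfp36 that also binds AU-rich mRNAs, fell in DKO cells from 55.9 to 20.3 and from 40.4 to 21.4 and rose in f/f cells from 31.2 to 49.1 and from 25.7 to 41.5 (difference -1.80; adjusted p = 0.0709). Myo10, an unconventional myosin of filopodia, rose in DKO cells from 37.6 to 66.4 and from 38.3 to 65.6 and fell in f/f cells from 55.7 to 34.6 and from 52.8 to 30.5 (difference 1.51; adjusted p = 0.0709).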

How the results depend on the processing

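All 103 genes called in DKO cells kept their direction under every alternative in which they were tested. They were chosen on the same values with like signs in both batches, so this is no independent check. Changing the block or leaving out an f/f library cannot alter their DKO estimates. Medians of lists near 0 did change sign, for example the Wnt list from 0.10 to -0.04 and the neuroectoderm list from 0.30 to -0.12 without DKO D4EB replicate 2, and the germline list from 0.19 to -0.20 without DKO ESC replicate 1. The counts depended on the spread estimate. Without the replicate block 0 genes were called higher and 1 lower in DKO cells, and 0 and 0 in f/f cells. With the replicate block fitted within each genotype the counts were 0 and 13 in DKO and 345 and 147 in f/f, and with only the 4 DKO libraries, block kept, 0 and 3. With no filter on low values they were 0 and 1 in DKO, and 285 genes were called lower in f/f. A minimum mean of 5 left 619 called higher in f/f cells. DESeq2 called 347 higher and 539 lower in DKO, 1271 lower in f/f, and 152 and 268 for the difference between genotypes. In f/f cells 724 were called lower with median-of-ratios scaling and 748 with edgeR. Leaving out 1 library in turn gave 0 to 36 higher and 0 to 75 lower in DKO, and 0 to 1249 higher and 0 to 634 lower in f/f. EdgeR called 89 of the 103 DKO genes and DESeq2 100. The rule of at least 2-fold in both batches kept 120 higher and 245 lower with a pseudocount of 0.1, 71 higher with 0.5, 418 and 471 at a log2 difference of 0.5, and 0 and 22 at 2. The f/f counts under alternatives were added after seeing the data. The difference between genotypes could not be fitted on the DKO libraries alone. What depth limited was not tested.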

Other observations

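Small nucleolar RNA genes were counted apart, since poly(A) selection recovers them poorly. Of 100 tested, 7 were called lower and 0 higher in DKO D4EB by limma, against 0.626% and 0.201% of all genes. At least 2-fold in both batches, 10 were lower and 2 higher, against 1.2% and 0.265% of all genes. The median was -0.37. In f/f cells 7 were called lower, against 3.86% of all genes. Short genes have few reads per unit of RPKM or FPKM, so these values are less precise than those of mRNAs.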
